A study of Mus musculus with 30 samples.

Results

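The transcripts of 6 matrix metalloproteinases (MMPs) and 3 tissue inhibitors of metalloproteinases (TIMPs) were followed in bone marrow (BM) and in adipose tissue macrophages (ATMs) of lean and obese mice carrying leukemia-initiating marrow cells. The genes were chosen by name (*Mmp2*, *Mmp12*, *Mmp13*, *Mmp14*, *Mmp19*, *Mmp25*, *Timp1*, *Timp2* and *Timp3*), and all 9 were found among the 13353 genes counted in BM and among the 17059 genes counted in ATMs. The name rule used no measured value, but the 9 genes were chosen with earlier results of these data known.

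MMPs are zinc-dependent endopeptidases that cut collagen, elastin, laminin, proteoglycans and also cytokines and cell surface proteins, and most of them are made as inactive proenzymes. TIMPs bind the active site of MMPs and block it, so the balance of both families sets how fast matrix is turned over. In marrow, matrix cleavage bears on the niche of hematopoietic cells and on their exit to the blood, and in fat, it accompanies the growth of adipocytes and the entry of macrophages.

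The study asked how obesity changes hematopoiesis driven by the gain-of-function Shp2E76K mutation, and whether a GLP-1 receptor (GLP-1R) agonist and blockade of IL-17A act on it. Each tissue had 15 libraries, 3 for each of 5 groups. The labels give an age of 12 to 14 weeks and both sexes for the mice, without the step at which the age applies, and the study's methods give a younger range for recipients at irradiation. By the protocols, all recipients were lethally irradiated (700 cGy followed by 400 cGy) and received CD45.2+ BM cells of Shp2E76K/+;LysM-Cre+ mice, in which LysM-Cre acts in myeloid cells, in equal number with CD45.1+ competitor BM cells of Boy/J mice, so that the mutation was in a share of the hematopoietic cells and in no host cell. WT recipients were C57BL/6 mice, and the other 4 groups were leptin-deficient Ob/Ob recipients on a C57BL/6J background. From 8 weeks after transplantation, Ob/Ob recipients were given, for 30 days, vehicle (Vehicle), the GLP-1R agonist beinaglutide at 3 mg/kg s.c. (GLP1RA), an anti–IL-17A antibody at 200 µg per mouse i.p. 3 times a week (antiIL17A) or both agents (Combo). No vehicle is named for the WT recipients, so recipient genotype and vehicle injection cannot be told apart in Vehicle vs WT, and the labels give no donor for single libraries. For ATMs, the study's text sets obese recipients against WT controls, while a figure legend names Ob/Ob mice given either Shp2E76K/+ or WT donor cells. The donor of the WT ATM libraries is thus uncertain, and a donor difference cannot be told apart there either.

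Whole BM cells and F4/80+ cells sorted from visceral adipose tissue were sequenced, with 31086184 to 39925495 counts on genes per BM library and 24876074 to 45300263 per ATM library. Values are normalized counts, that is, counts scaled by the trimmed mean of M values (TMM) to the mean library size of the tissue, so levels on this scale are compared within a gene and a tissue only. Replicates scattered with a biological coefficient of variation of 3.51% for BM libraries and 32.5% for ATM libraries. The protocol text names 3 mice per group for the vehicle and treatment groups and 3 biological replicates for every group, but the labels number libraries and tie none to a mouse. Sex-linked transcripts in BM (below) were close to each other within groups and far apart between groups. Whether replicates came from separate mice or from pooled marrow was not tested, and p-values, above all in BM, hold the spread between these libraries alone, which may be technical. The first WT library of BM stood apart from the other 2 (chi-square per degree of freedom of 26.6 and 34.8, against at most 4.21 in any other pair of BM replicates), and without it the same 8 genes were called in Vehicle vs WT, with log2 fold changes of 1.96 for *Mmp2*, -2.23 for *Mmp12*, 3.12 for *Mmp13*, 2.25 for *Mmp14*, 2.46 for *Mmp19*, 5.08 for *Timp1*, -1.60 for *Timp2* and 1.81 for *Timp3*. Since RNA of whole tissue or of a sorted fraction was measured, fewer cells of a type and less RNA per cell cannot be told apart.

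The ATM label was checked against markers of macrophages and of other cells. All 12 macrophage markers were detected, but *Adgre1*, which encodes F4/80 itself, lay at 1002 to 1738 normalized counts in the 3 Vehicle libraries, against 6387 to 7619 in WT and 13111 to 13434 in Combo, and *Csf1r*, the receptor on which macrophages depend, at 1274 to 1804 against 17624 to 18458 in WT. The summed count of 11 detected neutrophil markers (of 12 listed, with Ly6g not among the counted genes) was 697807 to 739277 in Vehicle and 418117 to 428975 in Combo, but 8910.5 to 9559.9 in WT, 6401 to 6908 in GLP1RA and 13992 to 14427 in antiIL17A. The 12 fibroblast and stromal markers summed to 224389 to 237373 in Vehicle, 529073 to 558750 in WT and 845922 to 863429 in GLP1RA, and the 7 endothelial markers to 85860.2 to 88598 in Vehicle against 25042 to 25276 in WT. Marker by marker, Vehicle vs WT had 11 of 11 neutrophil markers called higher, 3 of 12 macrophage markers higher and 6 lower, 1 of 12 stromal markers higher and 5 lower, and 4 of 7 endothelial markers higher and 1 lower. None of these sums was near 0 in any group, so the sorted fractions held transcripts of several cell types in group-dependent amounts. The 5 mesothelial markers summed to 42344 to 44240.5 in WT, 5513 to 6464 in Vehicle and 6684 to 7193 in Combo. Of 10 listed epididymal and pancreatic transcripts, 8 were counted in ATMs. They summed to 15201 to 16104 in WT, 265.8 to 468 in Vehicle and 22085.5 to 22366 in Combo. The part of these differences in the MMP and TIMP values was not tested.

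**Figure D1:**
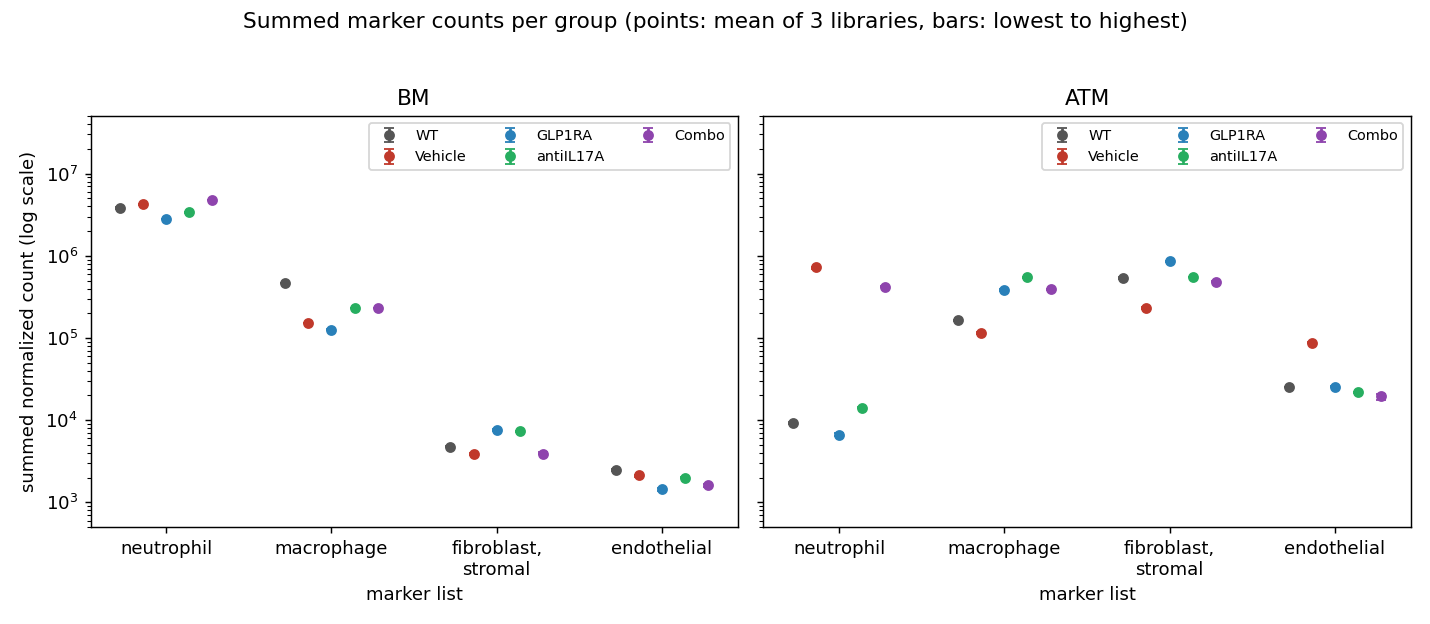
Summed normalized counts (vertical axis, log scale) of marker lists for neutrophils, macrophages, fibroblasts and stromal cells, and endothelial cells in BM (left) and ATMs (right). Points are means of 3 libraries per group and bars run from the lowest to the highest library. In ATMs the neutrophil sum of Vehicle and Combo lies far above that of the other 3 groups, and in BM the neutrophil sums of single libraries run from 2815400 (GLP1RA) to 4813580 (Combo).

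Sex-linked transcripts also differed between groups. In BM, *Xist*, which is transcribed from the inactive X chromosome of female cells, lay at 6339 to 6712 normalized counts in Vehicle and 3528 to 3657 in Combo, but at 0 to 2.6 in WT, 0 to 5.62 in GLP1RA and 88.3 to 113 in antiIL17A. The Y-linked *Ddx3y* was at 695 to 743 in Vehicle and 147 to 177 in Combo, against 1489 to 1681 in WT. In ATMs, *Xist* was at 998 to 1533 in Vehicle and 1041 to 1264 in Combo, against 8.42 to 26.1 in WT, 0 in all GLP1RA libraries and 0 to 40.6 in antiIL17A. All 5 listed sex-linked genes were called in ATMs in Vehicle vs WT, in GLP1RA and antiIL17A vs Vehicle and in Combo vs WT and vs each single agent, and 0 in Combo vs Vehicle, so the groups split as they did for the ATM neutrophil sum. Among the MMP and TIMP genes, *Timp1* is on the X chromosome, and the sex of the cells cannot be told apart from the group.

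Positions are given on GRCm38 (the build of the files, mm10) from GENCODE M21. *Mmp13* (chr9:7272514-7283331) and *Mmp12* (chr9:7344381-7369499) are neighbors in the MMP cluster of chromosome 9, *Mmp2* is at chr8:92827291-92853420, *Mmp19* at chr10:128790910-128800824, *Mmp14* at chr14:54431612-54445364 and *Mmp25* at chr17:23628311-23645277. *Timp1* is at chrX:20870166-20874735, *Timp2* at chr11:118301069-118355740 and *Timp3* at chr10:86300372-86349506. Of the exon bases of *Mmp19*, 28.3% are shared with *Gm47093* and *Tmem198b*, of those of *Timp3*, 21.3% with *Syn3*, and of those of *Mmp12*, 2.17% with the annotated Mmp1b. Reads were counted without regard to strand and for each gene they overlapped, so reads on these shared bases cannot be assigned to 1 gene.

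Upstream sequences are shown for the genes with the largest increases in Vehicle vs WT, *Mmp13* and *Timp1*, and for *Mmp12*, the chromosome 9 neighbor of *Mmp13*, which moved the opposite way in BM. RefSeq (GRCm38.p6) gave promoters for 7 of the 9 genes, as 8 windows of 250 bases before a transcription start. They were searched on both strands for the AP-1 motif TGANTCA and the PEA3 motif AGGAAG, which do not overlap each other, and matches are in capitals. The windows are chr9:7272264-7272513 for *Mmp13*, chr9:7347124-7347373 for the downstream start of *Mmp12* and chrX:20869916-20870165 for *Timp1*, each on the plus strand, 5′ to 3′.
Mmp13: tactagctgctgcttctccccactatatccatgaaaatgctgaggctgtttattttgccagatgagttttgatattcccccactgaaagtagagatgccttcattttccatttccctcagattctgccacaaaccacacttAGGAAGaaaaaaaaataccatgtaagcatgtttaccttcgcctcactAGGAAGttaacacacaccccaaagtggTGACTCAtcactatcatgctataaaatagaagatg
Mmp12: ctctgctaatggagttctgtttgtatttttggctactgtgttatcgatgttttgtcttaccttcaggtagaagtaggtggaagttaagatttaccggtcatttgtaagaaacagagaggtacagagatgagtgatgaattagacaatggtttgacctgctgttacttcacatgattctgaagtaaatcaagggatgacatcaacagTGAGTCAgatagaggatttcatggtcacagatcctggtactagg
Timp1: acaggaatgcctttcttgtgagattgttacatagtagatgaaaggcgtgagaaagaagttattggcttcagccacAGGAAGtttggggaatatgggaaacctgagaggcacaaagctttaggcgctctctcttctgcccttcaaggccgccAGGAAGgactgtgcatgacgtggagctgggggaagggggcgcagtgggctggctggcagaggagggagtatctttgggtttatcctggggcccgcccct
The AP-1 match of *Mmp13* lies 35 bases before the start and that of *Mmp12* 44 bases before. These were the 2 of 8 windows with an AP-1 match, which 6.75% of all 32851 promoters of this length hold. The window of the upstream start of *Mmp12* (chr9:7344147-7344396, not printed) held no AP-1 match and 1 PEA3 match, 87 bases before that start. The PEA3 motif was found in 6 of 8 windows, among them 2 matches each for *Mmp13*, *Timp1* and *Mmp25*, and in 29.5% of all promoters. A match of letters describes the sequence and is not a binding site.

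Levels of different genes were compared as library-scaled counts (CPM) per kb of exon. In WT BM the highest levels, in CPM per kb, were those of *Timp2* (26.6 ± 1.23, SD, n = 3 here and below) and *Mmp25* (26.0 ± 1.56), and the other 7 genes lay at or below 1.82 ± 0.125 (*Mmp19*). In WT ATMs, *Timp2* led with 506 ± 75.1, followed by *Timp3* with 162 ± 9.6 and *Mmp2* with 99.5 ± 7.2, and *Mmp13* and *Mmp25* were lowest at 0.546 ± 0.324 and 0.562 ± 0.0697. In Vehicle ATMs, *Timp1* reached 606 ± 32.9 CPM per kb and stood above every other gene of the group, *Timp3* at 395 ± 21.1 included.

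In BM of vehicle-treated obese mice, 6 of the 9 genes were higher and 2 lower than in WT. Vehicle vs WT gave higher *Timp1*, *Mmp13*, *Mmp19*, *Mmp14*, *Timp3* and *Mmp2* and lower *Mmp12* and *Timp2*, with *Mmp25* not called, that is, without an adjusted p below 0.05 and an absolute log2 fold change above 1 in edgeR's quasi-likelihood test. Of all genes in BM, 19.5% were called in this comparison. The median log2 fold change of the 9 genes was 1.79, beside -0.02 over all genes. For the 7 other MMP and TIMP genes counted in BM, the median was -0.68, with 0 called higher and 2 lower. The 9 genes therefore do not stand for the whole family. In ATMs, 5 of 9 genes were called in the same comparison, *Timp1*, *Mmp13*, *Mmp25* and *Timp3* as higher and *Timp2* as lower, beside 35.4% of all genes, and the median was 0.81 beside -0.21.

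**Figure D2:**
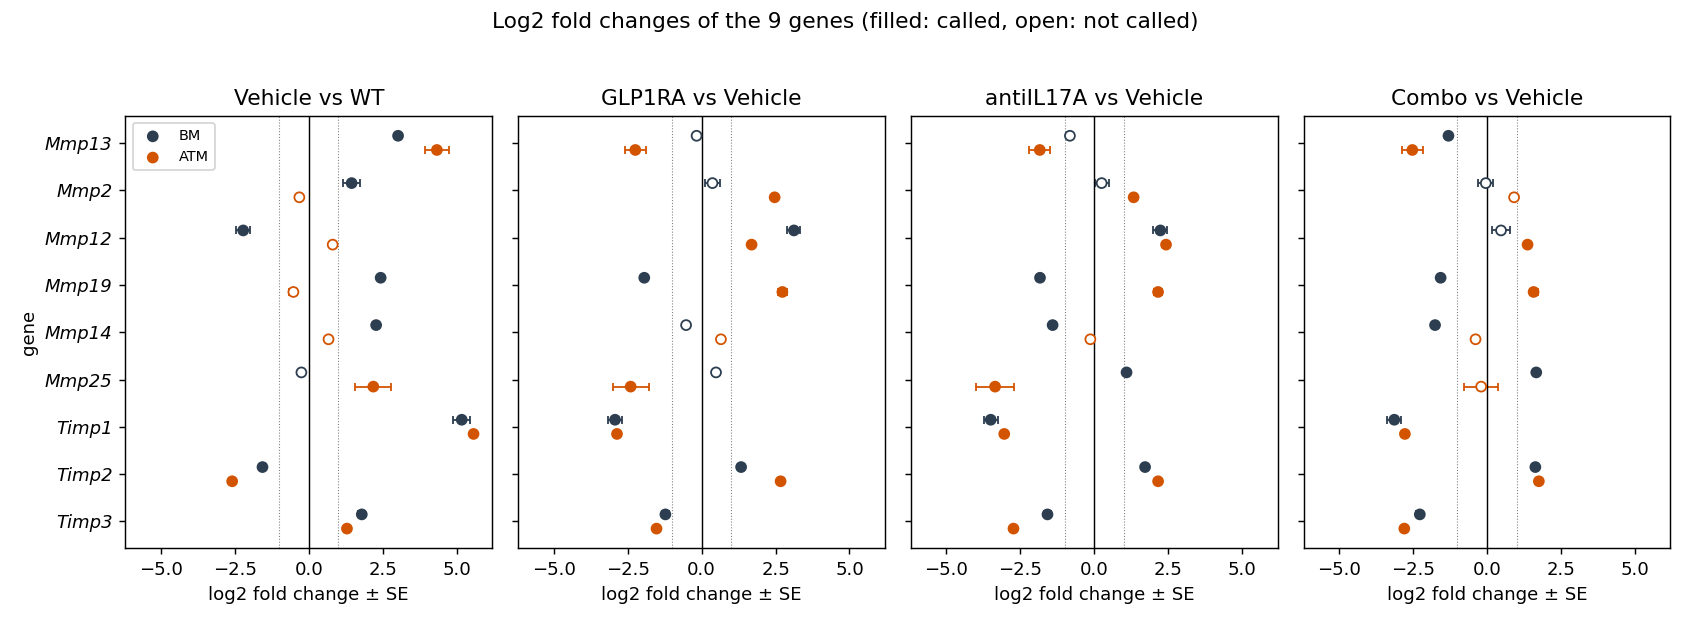
Log2 fold changes (horizontal axis) with standard errors of the 9 genes in BM (dark) and ATMs (orange), for Vehicle vs WT and each treated group vs Vehicle. Filled points passed the test, open points did not, and dotted lines mark an absolute log2 fold change of 1. *Timp1* and *Timp3* lie to the right in Vehicle vs WT and to the left under each treatment in both tissues, and *Timp2* the other way round.

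Under the single agents in BM, 5 genes were called in GLP1RA vs Vehicle (2 higher, 3 lower, beside 16.7% of all genes) and 7 in antiIL17A vs Vehicle (3 higher, 4 lower, beside 16.1%). Combo vs Vehicle gave 7, with *Timp2* and *Mmp25* higher and *Mmp13*, *Mmp14*, *Mmp19*, *Timp1* and *Timp3* lower, beside 17.7%. In ATMs, 8 genes were called in GLP1RA vs Vehicle (4 higher and 4 lower, beside 31.8%), 8 in antiIL17A vs Vehicle (4 higher and 4 lower, beside 35.5%) and 6 in Combo vs Vehicle (3 higher and 3 lower, beside 26.4%). These comparisons share the Vehicle libraries, so their calls are not independent of each other or of Vehicle vs WT.

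**Figure D3:**
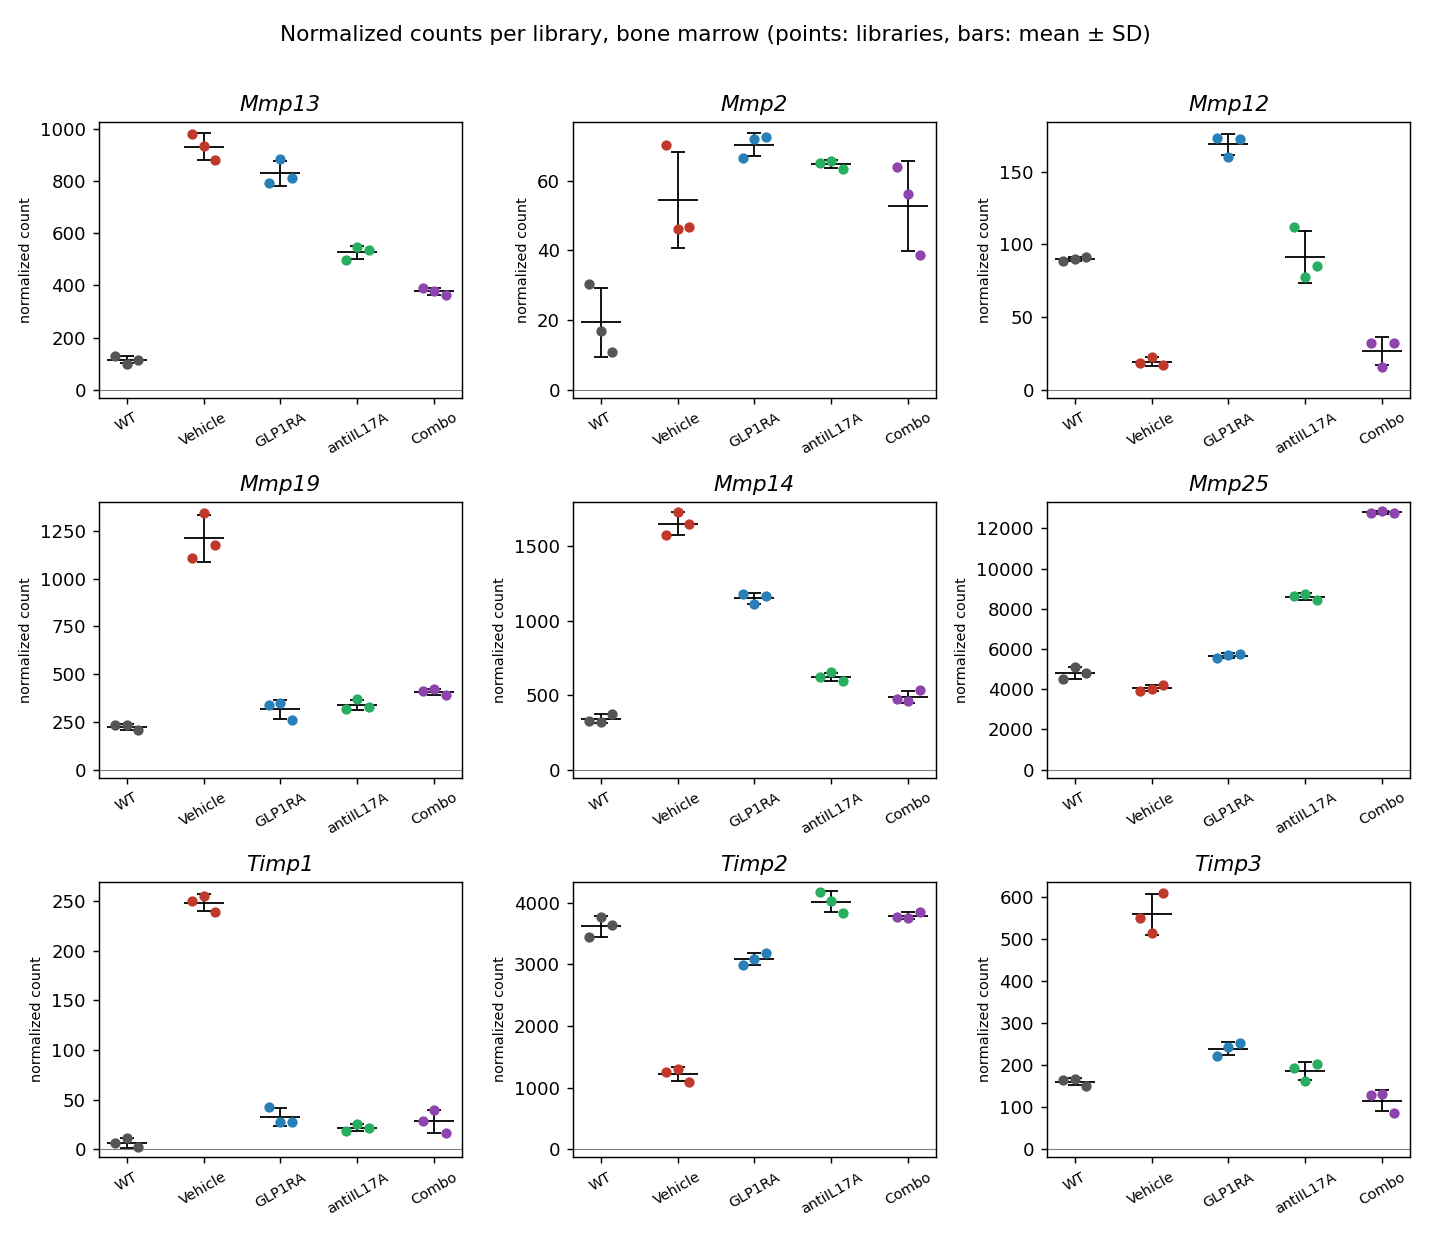
Normalized counts (vertical axes, linear, separate for each gene) of the 9 genes in the 15 BM libraries, by group. Points are libraries and black bars the mean ± SD of 3 libraries. *Mmp13*, *Mmp14*, *Mmp19*, *Timp1* and *Timp3* are highest in Vehicle, *Timp2* is lowest there, and *Mmp25* is highest in Combo.

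*Mmp13* encodes the main interstitial collagenase of rodents, which cleaves fibrillar collagen. In BM its normalized counts were 128, 100.2 and 115 in WT and 979.8, 935 and 879 in Vehicle. They were 793, 883 and 812 in GLP1RA, 497, 547 and 534 in antiIL17A and 389.9, 378 and 364 in Combo. The groups stood in the order WT, Combo, antiIL17A, GLP1RA, Vehicle, and only GLP1RA and Vehicle overlapped. The gene was 8.1-fold higher in Vehicle than in WT (log2 3.02 ± 0.09, adjusted p = 4.53e-29) and fell by 1.30 ± 0.07, adjusted p = 3.83e-19, on the log2 scale in Combo vs Vehicle. The log2 differences for the single agents, -0.17 ± 0.07, adjusted p = 0.0246 for GLP1RA and -0.82 ± 0.07, adjusted p = 1.29e-13 for antiIL17A, stayed within the limit of 1. The 6 detected osteoblast markers (of 8 listed, osteoblasts being a main source of this collagenase in bone) summed to 1814 to 1871 in WT, 4971 to 5191 in Vehicle, 4623 to 4963 in GLP1RA, 3854 to 3977 in antiIL17A and 2630.4 to 2844 in Combo, with *Bglap*, which defines mature osteoblasts, at 28.0 to 33.7 in WT and 3.6 to 15.03 in Vehicle. *Spp1*, which macrophages also make, alone had 651 to 719 in WT and 3856 to 4001 in Vehicle. Of the 6, 1 was called higher (*Spp1*) and 1 lower (*Bglap*) in Vehicle vs WT, and the part of these markers in the *Mmp13* values was not tested.

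In ATMs, *Mmp13* was 50.02, 18.9 and 76.3 in WT and 1009.9, 892 and 1018 in Vehicle, a log2 fold change of 4.33 ± 0.40, adjusted p = 1.9e-07. Treated ATMs held 216, 161 and 239.99 in GLP1RA, 287, 286 and 241 in antiIL17A and 156, 231 and 120.4 in Combo. Every treated library lay between the WT and the Vehicle libraries, and each treatment lowered the gene against Vehicle, with log2 fold changes of -2.24 ± 0.36, adjusted p = 7.96e-05 for GLP1RA, -1.84 ± 0.35, adjusted p = 0.000373 for antiIL17A and -2.52 ± 0.36, adjusted p = 3.05e-05 for Combo. Combo and GLP1RA overlapped, and Combo did not pass the test against either single agent. *Mmp13*, *Timp1*, *Timp2* and *Timp3* were the 4 genes called in 1 direction in both tissues in Vehicle vs WT and in the other direction in both tissues in Combo vs Vehicle.

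*Mmp2*, gelatinase A, degrades denatured and basement membrane collagen and is mostly a product of stromal cells. It was rare in BM, with 30.3, 16.9 and 10.8 normalized counts in WT and 70.3, 46.2 and 46.8 in Vehicle (log2 1.45 ± 0.29, adjusted p = 2.55e-05). No treatment was called against Vehicle in BM, where GLP1RA had 66.6, 71.9 and 72.6, antiIL17A 65.0, 65.6 and 63.5 and Combo 63.8, 56.1 and 38.6. The 4 obese groups lay above the WT libraries and close to one another.

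In ATMs, whose counts were scaled separately from those of BM, *Mmp2* peaked under the GLP-1R agonist. It stood at 10774, 12059.5 and 10575 in WT, 8603, 9379 and 8799 in Vehicle and 50728, 48754 and 48927 in GLP1RA. AntiIL17A libraries had 21656, 22271 and 23400.3 and Combo libraries 16412, 16925 and 17127. No groups overlapped. GLP1RA was 5.54-fold above Vehicle (log2 2.47 ± 0.05, adjusted p = 2.79e-15) and antiIL17A 2.51-fold (log2 1.33 ± 0.05, adjusted p = 2.96e-12), whereas Combo vs Vehicle, at 0.91 ± 0.05, adjusted p = 3.57e-10, did not pass the fold limit. The fibroblast and stromal sum was also highest in GLP1RA (845922 to 863429) and lowest in Vehicle (224389 to 237373). It was 547130 to 552267 in antiIL17A, 479159 to 488964 in Combo and 529073 to 558750 in WT. In this sum WT overlapped antiIL17A and lay above Combo, whereas in *Mmp2* WT lay below both. The part of the stromal sum in the *Mmp2* values was not tested.

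*Mmp12*, macrophage elastase, is a product of macrophages that cleaves elastin. In BM it was 88.3, 90.3 and 91.5 in WT, 18.1, 22.6 and 16.8 in Vehicle and 31.9, 15.9 and 32.3 in Combo. Both single agents had more, with 173, 160.4 and 173 in GLP1RA and 112, 77.3 and 85.2 in antiIL17A. Vehicle and Combo overlapped at the bottom, antiIL17A overlapped WT, and GLP1RA stood highest. Vehicle was below WT (log2 -2.22 ± 0.24, adjusted p = 7.69e-11), GLP1RA above Vehicle by 8.71-fold (log2 3.12 ± 0.22, adjusted p = 4.5e-16) and antiIL17A by 4.7-fold (log2 2.23 ± 0.24, adjusted p = 6.53e-11), and Combo vs Vehicle was not called (0.47 ± 0.30, adjusted p = 0.151). Of the 12 macrophage markers, 3 were called higher and 2 lower in BM in Vehicle vs WT (median log2 0.13 beside -0.02 over all genes), with *Cd14* at 3.93 ± 0.06, *Fcgr1* at 3.46 ± 0.06, *Mrc1* at -2.91 ± 0.07 and *Lyz2* at -1.90 ± 0.02. In GLP1RA vs Vehicle, 2 were higher and 2 lower. Their summed count was mostly *Lyz2*, which neutrophils and monocytes also express, and ran from 461916 to 471635 in WT to 150971 to 152260 in Vehicle and 126584 to 127444 in GLP1RA, with *Lyz2* alone at 444237 to 453100, 119911 to 121594 and 109086 to 109856. The part of these cells in the *Mmp12* values was not tested.

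In ATMs *Mmp12* ran from WT (5827, 5598 and 5998) over Vehicle (10855, 9247 and 10395) to the treated groups. Combo libraries had 26262, 25881 and 26646, GLP1RA libraries 32963, 33743 and 31789 and antiIL17A libraries 52718, 55082 and 55901. No groups overlapped, and each treatment raised the gene against Vehicle, by a log2 fold change of 1.69 ± 0.05, adjusted p = 1.92e-13 for GLP1RA, 2.42 ± 0.05, adjusted p = 2.62e-15 for antiIL17A and 1.37 ± 0.05, adjusted p = 2.59e-12 for Combo. The macrophage sum was 159615 to 167773 in WT, 110885 to 119400 in Vehicle, 376388 to 392054 in GLP1RA, 542466 to 549355 in antiIL17A and 387746 to 390266 in Combo, with antiIL17A highest for the sum and the gene. Its part was not tested.

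**Figure D4:**
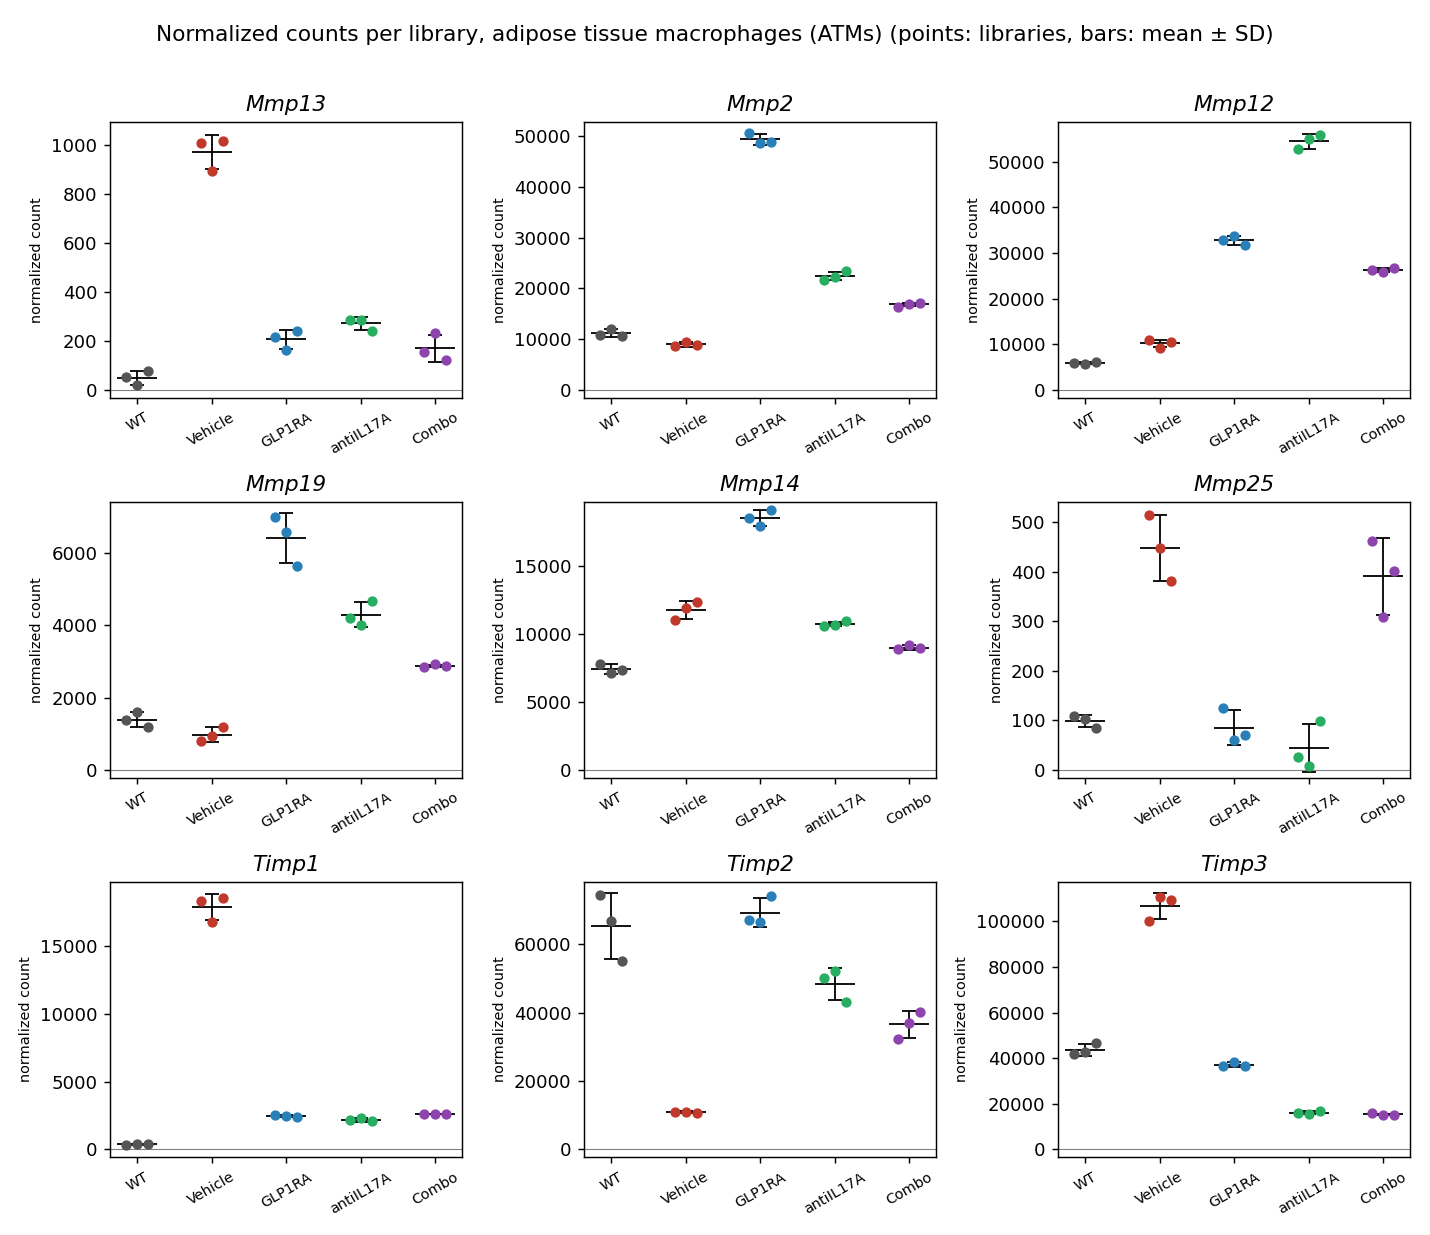
Normalized counts (vertical axes, linear, separate for each gene) of the 9 genes in the 15 ATM libraries, by group. Points are libraries and black bars the mean ± SD of 3 libraries. *Timp1*, *Timp3* and *Mmp13* are highest in Vehicle, *Timp2* is lowest there, *Mmp2*, *Mmp14* and *Mmp19* peak in GLP1RA, *Mmp12* peaks in antiIL17A, and *Mmp25* is high in Vehicle and Combo.

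*Mmp19*, which cleaves basement membrane components, moved in opposite directions in the tissues. BM libraries had 234, 233 and 207 in WT and 1111, 1347 and 1177 in Vehicle. After treatment they had 337, 351 and 259.6 in GLP1RA, 318, 370.4 and 330.1 in antiIL17A and 411, 424 and 392.3 in Combo. Vehicle stood alone above the others, and each treated group lay above WT. The gene rose 5.38-fold in Vehicle (log2 2.43 ± 0.09, adjusted p = 5.3e-24) and fell under GLP1RA (log2 -1.94 ± 0.09), antiIL17A (-1.83 ± 0.09) and Combo (-1.57 ± 0.09). In ATMs it was 1380.3, 1587 and 1188 in WT and 789, 923 and 1188 in Vehicle, which overlapped. Treated ATMs reached 7009.6, 6600.3 and 5657 in GLP1RA, 4199, 4019 and 4691 in antiIL17A and 2836, 2917 and 2872 in Combo. All treated libraries lay above all others, and GLP1RA raised the gene 6.65-fold over Vehicle (log2 2.73 ± 0.14, adjusted p = 1.68e-10), antiIL17A 4.45-fold and Combo 2.98-fold.

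*Mmp14* encodes MT1-MMP, a membrane-anchored collagenase that also activates the proenzyme of gelatinase A. Its BM counts were 328, 322 and 376 in WT and 1577, 1727 and 1651 in Vehicle. They were 1178, 1109.6 and 1165 in GLP1RA, 620.2, 652 and 595 in antiIL17A and 475, 459 and 532 in Combo. As for *Mmp13*, the order was WT, Combo, antiIL17A, GLP1RA, Vehicle, here without overlap. Vehicle was 4.84-fold above WT (log2 2.28 ± 0.07, adjusted p = 4.71e-29), and antiIL17A (log2 -1.41 ± 0.06, adjusted p = 5.5e-23) and Combo (-1.76 ± 0.06, adjusted p = 9.44e-26) lowered the gene against Vehicle, while GLP1RA, at -0.52 ± 0.06, adjusted p = 1.48e-10, stayed within the fold limit. In ATMs the means ran from 7426 in WT to 18567 in GLP1RA, no groups overlapped, and no comparison with Vehicle passed the fold limit (log2 0.67 ± 0.05 for Vehicle vs WT, 0.66 ± 0.05 for GLP1RA and -0.39 ± 0.05 for Combo).

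*Mmp25* encodes MT6-MMP, a protease anchored to the membrane of neutrophils. In BM it was 4524, 5100.3 and 4793 in WT and 3899.8, 4012 and 4211 in Vehicle. Counts were 5530.2, 5713 and 5769 in GLP1RA, 8614, 8756 and 8431 in antiIL17A and 12775, 12871 and 12749.8 in Combo. The 5 groups did not overlap, and the gene rose against Vehicle under antiIL17A (log2 1.09 ± 0.03, adjusted p = 7.01e-27) and under Combo (log2 1.66 ± 0.03, adjusted p = 5.75e-33). The neutrophil sum in BM was 3709360 to 3964080 in WT, 4195750 to 4258140 in Vehicle, 2815400 to 2839220 in GLP1RA, 3358160 to 3405480 in antiIL17A and 4765270 to 4813580 in Combo. Marker by marker, 3 of 11 neutrophil genes were called higher and 0 lower in antiIL17A vs Vehicle (median log2 0.54 beside 0.0065 over all genes). In Combo vs Vehicle, 7 of 11 were called higher and 0 lower (median log2 1.12 beside 0.02), with *Retnlg* at 2.52 ± 0.02, *Mpo* at 1.70 ± 0.03, *Csf3r* at 1.34 ± 0.03 and *Ltf* at 1.33 ± 0.02. In GLP1RA vs Vehicle, where *Mmp25* was not called (log2 0.49 ± 0.03), 1 of 11 was called higher and 0 lower (median log2 -0.04 beside 0.01). In ATMs, *Mmp25* was 108, 103 and 85.0 in WT, 516, 448 and 382 in Vehicle and 462, 308 and 402 in Combo. GLP1RA had 125, 59.6 and 69.8 and antiIL17A 25.9, 6.89 and 99.0. Vehicle and Combo overlapped and stood above the other 3 groups, the same 2 groups in which the ATM neutrophil sum was high (697807 to 739277 and 418117 to 428975, against 6401 to 6908 in GLP1RA). The log2 fold changes were, for Vehicle vs WT, 2.18 ± 0.61, adjusted p = 0.00624, GLP1RA vs Vehicle -2.39 ± 0.61, adjusted p = 0.00377, antiIL17A vs Vehicle -3.35 ± 0.64, adjusted p = 0.000339 and Combo vs Vehicle -0.20 ± 0.57, adjusted p = 0.834. The part of neutrophil transcripts in these values was not tested.

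*Timp1*, a secreted inhibitor that is induced by inflammatory cytokines and also acts as a growth signal, had the largest increase of the 9 genes in both tissues. BM libraries of WT recipients held 6.06, 11.9 and 2.15 normalized counts (2 to 12 reads), and Vehicle libraries 251, 256 and 239. GLP1RA had 43.1, 27.2 and 27.6, antiIL17A 18.3, 25.2 and 21.8 and Combo 28.8, 39.2 and 16.7. Vehicle stood alone, and the 3 treated groups lay together between it and WT. The log2 fold change of Vehicle vs WT was 5.17 ± 0.29, adjusted p = 3.3e-19, and the treatments lowered the gene by 7.58-fold (GLP1RA, log2 -2.92 ± 0.22, adjusted p = 4.63e-15), 11.3-fold (antiIL17A, log2 -3.50 ± 0.24, adjusted p = 1.32e-16) and 8.78-fold (Combo, log2 -3.13 ± 0.23, adjusted p = 1.77e-15).

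In ATMs, *Timp1* was again lowest in WT and highest in Vehicle. WT libraries had 347, 377 and 405 and Vehicle libraries 18318, 16747 and 18516, a 47.4-fold increase (log2 5.57 ± 0.08, adjusted p = 2.01e-17). The treated libraries had 2560.2, 2432 and 2401 in GLP1RA, 2146, 2296 and 2059.6 in antiIL17A and 2624, 2587 and 2613 in Combo, all between WT and Vehicle. GLP1RA lowered the gene by 7.25-fold, antiIL17A by 8.24-fold and Combo by 6.85-fold, and Combo stayed above WT by a log2 fold change of 2.79 ± 0.07, adjusted p = 6.14e-14.

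*Timp2*, an inhibitor that with MT1-MMP also takes part in activating gelatinase A, was lower in Vehicle than in WT in both tissues. BM counts were 3437, 3769 and 3632 in WT and 1259.9, 1300.5 and 1095 in Vehicle (log2 -1.56 ± 0.05, adjusted p = 1.36e-24). They were 2992, 3078 and 3182 in GLP1RA, 4174, 4030.2 and 3829.6 in antiIL17A and 3764, 3743 and 3847 in Combo. WT and Combo overlapped, as did Combo and antiIL17A, and every treated library lay above every Vehicle library, with log2 fold changes of 1.34 ± 0.05, 1.72 ± 0.05 and 1.63 ± 0.05 for GLP1RA, antiIL17A and Combo. In ATMs, WT had 74436, 66806 and 55158 and Vehicle 11050.1, 11008 and 10564, 6.02-fold less (log2 -2.59 ± 0.10, adjusted p = 5.96e-12). GLP1RA brought 67257, 66459.6 and 74155, antiIL17A 50073, 52130.5 and 43212 and Combo 32418, 37122 and 40275. GLP1RA overlapped WT, and Combo lay between Vehicle and antiIL17A.

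*Timp3*, which is held in the matrix and also inhibits ADAM and ADAMTS proteases, rose in Vehicle and fell under each treatment. BM counts were 165, 167 and 151 in WT and 549.99, 515 and 611 in Vehicle (log2 1.79 ± 0.11, adjusted p = 9.13e-18). Treated BM had 223, 243 and 252 in GLP1RA, 194, 163 and 203 in antiIL17A and 129, 131 and 86.6 in Combo. WT and antiIL17A overlapped, and Combo was lowest. ATM counts were 41678, 42762 and 46615 in WT and 100279, 110675 and 109514 in Vehicle (log2 1.29 ± 0.05, adjusted p = 2.15e-12). They were 36514, 38452 and 36657 in GLP1RA, 15955, 15503 and 16820.5 in antiIL17A and 15758, 15286 and 15104 in Combo, so that all treated libraries fell below WT. Combo was 6.94-fold below Vehicle (log2 -2.80 ± 0.05, adjusted p = 5.33e-16) and below WT by a log2 fold change of -1.51 ± 0.05, adjusted p = 1.02e-12. In ATMs, the endothelial sum was likewise highest in Vehicle (85860.2 to 88598) and lowest in Combo (17736 to 21094). In BM it was 2383 to 2559 in WT and 2066 to 2185 in Vehicle. Of the 7 endothelial markers in BM, 3 were called higher and 1 lower in Vehicle vs WT. The part of these markers in the *Timp3* values was not tested.

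Most of the 9 genes were called in Combo vs WT in each tissue. In BM, 5 genes were called in Combo vs WT, with *Mmp2* (log2 1.41 ± 0.29), *Mmp13* (1.71 ± 0.10), *Mmp25* (1.41 ± 0.03) and *Timp1* (2.03 ± 0.40) higher and *Mmp12* lower (-1.74 ± 0.22), beside 14.3% of all genes. *Timp2* differed from WT by 0.07 ± 0.04, adjusted p = 0.147, and *Mmp14*, *Mmp19* and *Timp3* stayed within the fold limit. In ATMs 6 genes were called, *Mmp12* (2.18 ± 0.05), *Mmp13* (1.80 ± 0.37), *Mmp19* (1.05 ± 0.13), *Mmp25* (1.98 ± 0.60) and *Timp1* (2.79 ± 0.07) higher and *Timp3* lower, beside 21.6%. The calls of *Mmp19* and *Mmp25* were lost without the third WT library of ATMs (log2 0.95 and 1.88, the latter at adjusted p = 0.0541). Not all of these genes had been called in Vehicle vs WT. *Mmp25* in BM (log2 -0.25 ± 0.03) and *Mmp12* (0.81 ± 0.05) and *Mmp19* (-0.52 ± 0.14) in ATMs had not, and *Timp3* in ATMs had been called higher there (1.29 ± 0.05).

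Against the single agents, Combo differed more from GLP1RA than from antiIL17A in the number of genes called, although the difference of these numbers was not tested. In BM, Combo vs GLP1RA gave 5 called genes, with *Mmp25* higher (log2 1.17 ± 0.03) and *Mmp12* (-2.65 ± 0.20), *Mmp13* (-1.14 ± 0.07), *Mmp14* (-1.24 ± 0.06) and *Timp3* (-1.05 ± 0.13) lower, beside 13.2% of all genes. The call of *Timp3* was lost without the third Combo library (log2 -0.88). Combo vs antiIL17A gave *Mmp12* alone, as lower (-1.76 ± 0.22, adjusted p = 7.17e-09), beside 5.67%. In ATMs, Combo vs GLP1RA gave *Mmp2* (-1.56 ± 0.05), *Mmp14* (-1.04 ± 0.05), *Mmp19* (-1.16 ± 0.13) and *Timp3* (-1.27 ± 0.05) as lower and *Mmp25* (2.20 ± 0.61) as higher, beside 18.7%. Combo vs antiIL17A gave *Mmp12* as lower (-1.05 ± 0.05) and *Mmp25* as higher (3.15 ± 0.63), beside 14.2%.

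Since both agents were given alone and together, the Combo effect was tested against the sum of the single effects on the log2 scale. In BM, 4 of 9 genes departed from that sum, beside 21.1% of all genes. *Mmp12* had single effects of 3.12 and 2.23, a Combo effect of 0.47 and so a departure of -4.88 ± 0.31, adjusted p = 2.55e-17. *Timp1* (3.29 ± 0.39), *Mmp19* (2.20 ± 0.13) and *Timp2* (-1.42 ± 0.06) had a Combo effect of about the size of 1 agent. For *Timp1*, the summed single effects (-6.42) were larger than its rise in Vehicle vs WT (5.17). The level without a departure thus lay below that of WT, which held 2 to 12 reads. *Mmp14* (0.17 ± 0.09, adjusted p = 0.0842) and *Mmp25* (0.08 ± 0.05, adjusted p = 0.0954) did not pass the test of a departure, and *Mmp13*, at -0.31 ± 0.10, adjusted p = 0.00661, was within the limit of 1.

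In ATMs, 8 of 9 genes departed, beside 35.9% of all genes, and in each of them the Combo effect was nearer to 0 than the summed effects. The largest departures were those of *Mmp25* (5.55 ± 0.88, adjusted p = 7.21e-05), with single effects of -2.39 and -3.35 against a Combo effect of -0.20, and of *Mmp19* (-3.31 ± 0.19, adjusted p = 7.24e-10). For *Mmp25*, the summed single effects (-5.75) were larger than its rise in Vehicle vs WT (2.18). The level without a departure thus lay below that of WT, which held 78 to 98 reads. *Timp1* departed by 3.12 ± 0.09, *Timp2* by -3.08 ± 0.14, *Mmp2* by -2.89 ± 0.07 and *Mmp12* by -2.75 ± 0.07. Combo ATMs held neutrophil transcripts that the single-agent ATMs held at far lower levels (above), and their part in the departures was not tested.

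**Figure D5:**
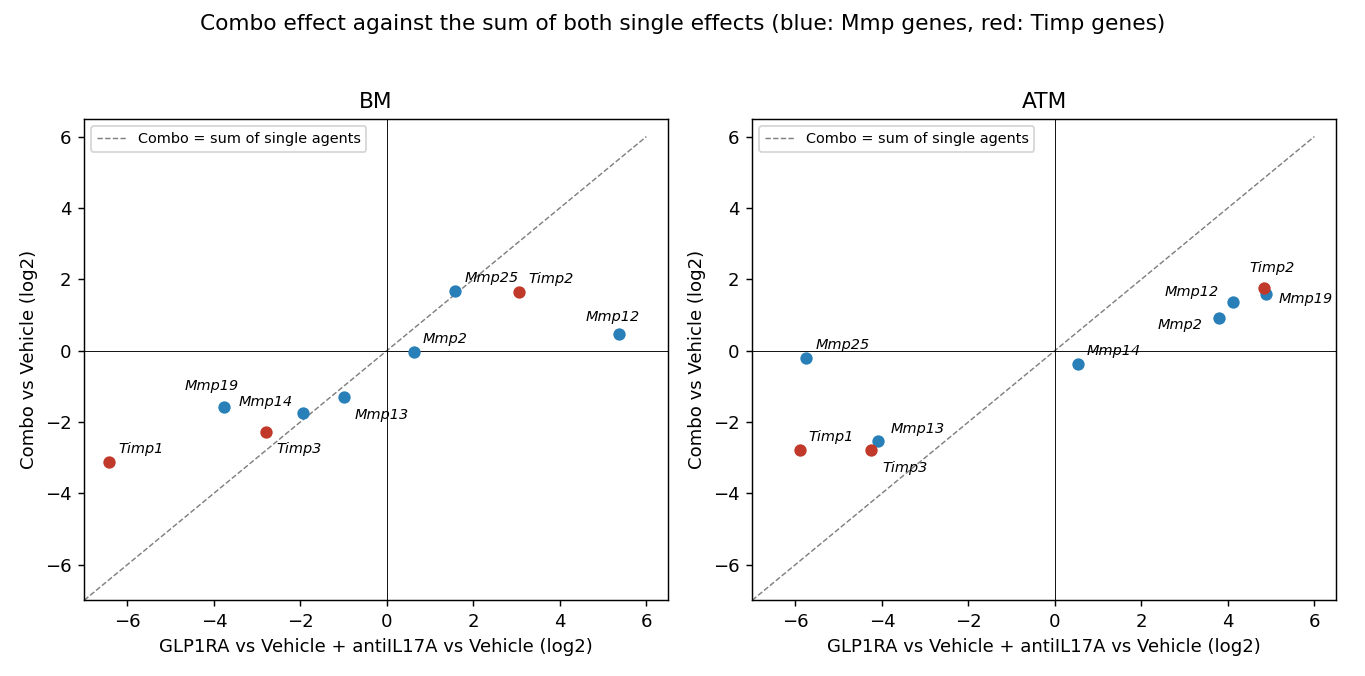
Combo vs Vehicle (vertical axis, log2) against the sum of the log2 fold changes of both single agents (horizontal axis) for BM (left) and ATMs (right). Each point is a gene, blue for Mmp and red for Timp genes, and the dashed line marks equality. In ATMs all called genes lie nearer to 0 on the vertical than on the horizontal axis. In BM, *Mmp14* and *Mmp25* lie near the line and *Mmp12* is farthest from it.

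The Vehicle vs WT change of 7 of the 9 genes differed between the tissues in a joint fit of 30 libraries over the 13076 genes counted in both, beside 28.7% of all genes. *Mmp12* fell in BM and had a log2 fold change of 0.81 ± 0.05 in ATMs, a difference (ATMs minus BM) of 3.03 ± 0.19, adjusted p = 3.61e-13, and *Mmp19* rose in BM and had -0.52 ± 0.14 in ATMs, a difference of -2.95 ± 0.19, adjusted p = 2.57e-13. *Timp1*, with a difference of 0.40 ± 0.40, adjusted p = 0.402, and *Timp3*, with -0.50 ± 0.11, adjusted p = 0.000549, were not called. For Combo vs Vehicle, 4 genes differed (*Mmp13*, *Mmp14*, *Mmp19* and *Mmp25*), beside 28.1%, with *Mmp19* lowered in BM and raised in ATMs (difference 3.18 ± 0.18, adjusted p = 3.19e-14). *Timp2*, raised in both tissues, had a difference of 0.16 ± 0.12, adjusted p = 0.295. Leaving out 1 library ended the call of *Mmp13* in both comparisons (0.92 without the second WT library and -0.99 without the third Combo library of ATMs) and, for 1 of several libraries, that of *Timp2* in Vehicle vs WT (-1.02 ± 0.12, nearest to 0 at -0.92 without the first WT library of ATMs). Without 1 library, *Mmp2* reached 1.16 and *Mmp12* 1.09 in Combo vs Vehicle and passed the limit (both without a Combo library of BM), from 1.00 ± 0.21 and 0.94 ± 0.26 with all libraries.

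As a description, the summed levels of the 3 TIMPs were set against those of the 6 MMPs, in CPM per kb. In BM the ratio of TIMP to MMP transcripts was 0.877 ± 0.00498 in WT, 0.378 ± 0.0191 in Vehicle, 0.503 ± 0.0127 in GLP1RA, 0.525 ± 0.0191 in antiIL17A and 0.367 ± 0.0016 in Combo. Vehicle and Combo had the lowest ratios and their libraries overlapped. In ATMs it was 3.91 ± 0.335 in WT and 5.33 ± 0.095 in Vehicle, and 1.04 ± 0.0568, 0.975 ± 0.0971 and 1.28 ± 0.0718 in GLP1RA, antiIL17A and Combo. All treated ATM libraries lay below all WT and Vehicle libraries. The ratio counts transcripts of the 9 genes alone and says nothing of enzyme activity or of the whole families. In BM the MMP sum was mostly *Mmp25* in every group but Vehicle (26.0 of 31.2 in WT and 69.3 of 79.6 in Combo). In Vehicle, *Mmp25* made up 21.9 of 50.2, and most of the rest was *Mmp13*, *Mmp19* and *Mmp14*. The 7 other MMP and TIMP genes counted in BM, *Mmp8* and *Mmp9* included, are left out. Their normalized counts summed to a mean of 114812 in WT and 74980 in Vehicle, against 9377 and 9935 for the 9 genes.

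Other genes of matrix proteolysis gave a context for these changes. Of 7 counted other MMP and TIMP genes in BM (18 listed), none was called higher and 2 lower in Vehicle vs WT, *Mmp11* (log2 -2.36 ± 0.28) and *Mmp23* (-1.90 ± 0.49). Combo vs Vehicle raised 2, the neutrophil gelatinase gene *Mmp9* (1.46 ± 0.02) and the neutrophil collagenase gene *Mmp8* (1.06 ± 0.02), and lowered *Mmp17* (-1.25 ± 0.46). In ATMs, 13 were counted, of which 4 were higher and 4 lower in Vehicle vs WT, with *Mmp8* (7.03 ± 0.31) and the stromelysin gene *Mmp3* (3.39 ± 0.07) among the higher and the matrilysin gene *Mmp7* (-5.30 ± 0.39) among the lower. *Mmp16* was at 0 in all 3 Vehicle libraries. *Mmp8*, a neutrophil gene, was high in the same ATM groups as *Mmp25*, with 18357 to 19314 in Vehicle, 8769 to 9994 in Combo and 166 to 298 in GLP1RA.

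Among activators and inhibitors of matrix proteolysis, 6 of 14 counted genes rose and none fell in Vehicle vs WT in BM. *Thbs1*, thrombospondin 1, went from a mean of 3713 to 24428 normalized counts (log2 2.72 ± 0.03), and Combo lowered it, with a log2 fold change of -3.61 ± 0.03. In ATMs, 7 of 18 rose and 9 fell, with *Plaur*, the urokinase receptor, at a log2 fold change of 3.46 ± 0.05 and *Spock2* at -4.60 ± 0.16. Of 12 counted ADAM and ADAMTS proteases in BM, 3 rose and 2 fell, led by *Adamts1* (3.67 ± 0.39), and of 16 in ATMs, 5 rose and 3 fell, led by *Adam28* (7.14 ± 0.98).

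Genes of matrix proteins, the substrates of these enzymes, were counted in the same way, and their tissue difference was not tested. In BM, 4 of 14 rose in Vehicle vs WT and none fell, with *Col4a1* (2.50 ± 0.14) and *Col4a2* (2.18 ± 0.15) of the basement membrane in front. In ATMs, 2 of 15 rose and 10 fell, among them *Fn1*, fibronectin (-3.87 ± 0.07), and *Eln*, elastin (-3.00 ± 0.12), with a median of -1.28 beside -0.21 over all genes. GLP1RA vs Vehicle raised 11 of 15 in ATMs and lowered none (median 2.05 beside 0.19), in the group with the highest stromal sum, and 4 of the 15 genes (*Col1a1*, *Col1a2*, *Col3a1* and *Dcn*) are also on the stromal list. *Fn1* rose again under Combo, at 2.63 ± 0.07, and *Eln* at 1.89 ± 0.11.

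The genes most like *Mmp12* in BM, the member called in most comparisons there, were *Gas6* (Pearson r of log2 CPM over 15 libraries, 0.986), *Atp6v0d2* (0.977), *Cxcl12* (0.976), *Cd36* (0.97) and *Urod* (0.961). In ATMs, *Mmp25* and *Timp3* were each called in 6 of 7 comparisons, and *Mmp25*, with the larger change in Vehicle vs WT, was taken. The genes most like it were *Dcaf12* (0.913), *Cdk5r1* (0.906), *Gpr84* (0.894), *Il1f9* (0.88) and *Cyp26b1* (0.879). The 15 libraries fall into 5 groups, so these values describe group patterns and have no p-value.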

How the data were processed

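RNA was purified from whole BM cells and from F4/80+ cells of visceral adipose tissue, and polyA-selected, unstranded libraries were sequenced. Per the study's methods, the authors aligned reads with STAR 2.7.2a to mm10 and counted them with featureCounts 2.0.1 on GENCODE M22 without regard to strand, for every gene overlapped, at a mapping quality of 10 or more. They deposited raw counts per gene symbol, 1 table per tissue, each without genes of low totals (the lowest totals over 15 libraries were 55 in BM and 54 in ATMs).

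Counts of the 15 libraries of a tissue were fitted together with edgeR 4.0.16 (R 4.3.3, limma 3.58.1), by the robust quasi-likelihood F-test after TMM scaling. The filter filterByExpr took out 0 genes. Calls needed an adjusted p below 0.05 (Benjamini-Hochberg, over all genes of the table) together with an absolute log2 fold change above 1. Values after ± are standard errors for log2 fold changes and SDs elsewhere. Combo was tested against the sum of the single agents as a contrast in the same fit, and tissues were compared by an interaction term in a joint fit of 30 libraries. These scripts were tested on simulated counts. Exon lengths and overlaps were taken from GENCODE M21 and promoters from RefSeq (GRCm38.p6).

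The 9 genes and all gene and marker lists were chosen with earlier results of these data known. Besides the 9 genes, the text names, of each list, up to 4 called genes per tissue with the largest change in Vehicle vs WT and in Combo vs Vehicle, the 5 genes most like the member called in most comparisons, ties going to the larger change in Vehicle vs WT (mean of at least 50 counts), and marker genes beside a result. For 1 gene that this rule names, values are not reported here. Same-numbered replicates did not deviate together (1 of 30 pairs in BM and 0 of 30 in ATMs had a correlation above 0.1), so replicate numbers were not used as pairs. The alternatives were DESeq2 1.42.0, its size factors in edgeR, skipping filterByExpr, a stricter filter (10 counts or more in each library), calls by adjusted p alone, fits of the compared groups alone, a replicate block, and leaving out each library.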

Additional observations from a re-analysis of the deposited data

Results flagged for a closer look

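In the joint fit of both tissues, 11 effects differed between ATMs and BM by edgeR's interaction test and are given as the log2 fold change in ATMs minus that in BM. For Vehicle vs WT, 3 genes had a higher value in ATMs, Mmp12 (3.03), Mmp25 (2.44) and Mmp13 (1.31). A lower value in ATMs was found for Mmp19 (-2.95), Mmp2 (-1.76), Mmp14 (-1.60) and Timp2 (-1.02). For Combo vs Vehicle, Mmp19 (3.18) and Mmp14 (1.41) had a higher value in ATMs and Mmp25 (-1.82) and Mmp13 (-1.18) a lower one. The summed neutrophil, macrophage and stromal markers of the ATM libraries differed between the same groups, and their part in these differences was not tested.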

How the results depend on the processing

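Without the fold-change limit, the genes called (of 9) went to 8 in BM for GLP1RA vs Vehicle and for Combo vs WT, to 6 for Combo vs antiIL17A in BM, to 9 for Vehicle vs WT and 7 for Combo vs antiIL17A in ATMs, and to 7 for the tissue difference in Combo vs Vehicle, while 52.5% to 76.6% of all genes in BM and 28.6% to 58.1% in ATMs were then called, and 55.1% for that tissue difference. With at least 10 counts in every library, Mmp25 was not tested in ATMs and Timp1 was not tested in BM, Combo vs antiIL17A kept 1 gene in ATMs, and the share of all genes called in that comparison was 6.37% in place of 14.2% in ATMs and 3.54% in place of 5.67% in BM. Leaving out 1 library, DESeq2, its size factors, no filter and a fit of the compared groups alone moved no other count of the 9 genes by more than 1.5 times. The replicate block changed no such count (8 in BM and 5 in ATMs for Vehicle vs WT).

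No call reversed. Leaving out 1 library at a time turned the sign of 3 values that were not called. Mmp2 in BM, Combo vs Vehicle, ranged from -0.20 to 0.19, Timp1 in BM, Combo vs GLP1RA, from -0.52 to 0.056, and the tissue difference of Timp1 in Vehicle vs WT from -0.24 to 0.77. The tissue difference of Timp2 in Vehicle vs WT was -0.99 with DESeq2 and with its size factors in edgeR, just within the limit. Low counts of Mmp2, Mmp12 and Timp1 in BM and of Mmp25 in ATMs limit the precision of their fold changes, and 3 libraries per group limit all.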
